A study of Arabidopsis thaliana with 6 samples.

Results

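The tubulin genes of Arabidopsis thaliana were followed in seedlings treated with auxin, with or without an inhibitor of brassinosteroid synthesis. Their probe sets were taken from the array annotation as those assigned to 1 gene whose symbol is TUA (alpha-tubulin) or TUB (beta-tubulin) and a number. This gave 7 genes, with 1 probe set each, of the 13356 genes that had a probe set of their own among the 22810 on the array. The alpha-tubulins were TUA1 and TUA6, and the beta-tubulins TUB1, TUB5, TUB6, TUB7 and TUB9. The probe sets were picked by symbol alone, with no signal used, but the family itself was taken up with earlier results of the same comparison known. The p-values below therefore place each probe set among all those tested and are not independent evidence for the family.

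Microtubules are hollow filaments built from dimers of alpha- and beta-tubulin. In growing plant cells they lie beneath the plasma membrane and guide the complexes that spin cellulose, so that their order bears on the direction in which a cell expands. They also form the spindle and the phragmoplast of dividing cells. Brassinosteroids are growth-promoting steroid hormones, and mutants that lack them are dwarfed, with altered order of these cortical microtubules.

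All seedlings were of the Columbia ecotype and were 10 d old, grown on agar in cycles of 16 h light and 8 h dark, and all received 1e-07 M 2,4-D, a synthetic auxin, in liquid medium for 8 h. In 3 samples this medium also held 1e-06 M brassinazole, which blocks a step of brassinosteroid synthesis, and in the other 3 samples it held 2,4-D alone. RNA of whole seedlings, 3 to a batch and pooled, was hybridised to Affymetrix arrays, 1 per sample. The titles call the samples biological replicates, but the labels do not settle whether each came from a pool of its own, so the p-values may measure only technical spread. Arrays are called by group and replicate number, such as brassinazole 1 (with 2,4-D) and 2,4-D alone 1. Seedlings that received no 2,4-D, or brassinazole without it, were not analysed here, so every difference is relative to 2,4-D alone. In RNA of whole seedlings, fewer cells of a type and less RNA per cell cannot be told apart.

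Of the 15 alpha- and beta-tubulin genes in the RefSeq gene table, 7 had a probe set of their own in the annotation. A further 2 alpha-tubulin genes shared a probe set, and the remaining 6 (TUA2, TUA4, TUB2, TUB3, TUB4 and TUB8) had no entry and were not analysed here. All 7 members passed the filter on dim probe sets. Their probe sets end in _at, with no _s_at or _x_at, the endings that mark binding to several transcripts. Tubulin coding sequences are alike, and how far each probe set also bound related transcripts was not tested. Signals are linear intensities, and since probe sets differ in how well they bind, levels are compared between arrays and not between genes.

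Signals of the tubulin genes were modestly lower in seedlings given brassinazole with 2,4-D. The log2 change (2,4-D plus brassinazole minus 2,4-D alone, on log2 of signal + 16) was below 0 in 7 of 7 probe sets, with a median of -0.17 and a range from -0.34 for TUB5 to -0.08 for TUB9. Past the threshold (limma, Benjamini-Hochberg adjusted p under 0.05 over 17059 probe sets), 2 of the 7 fell, TUB5 and TUB6, and 0 rose. Over all probe sets tested, 4.08% were called lower and 3.44% higher, and 5.39% were called lower among those at least as bright as the dimmest tubulin. The median change over all probe sets tested was -0.01, and 52.7% had a change below 0.

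Both alpha-tubulins were lower by similar amounts, and neither passed. TUA6, a broadly expressed alpha-tubulin often tagged to view microtubules in living cells, had signals of 5559.9, 5339.6 and 5339 with brassinazole plus 2,4-D, against 6433, 5949 and 5939 with 2,4-D alone. The groups did not overlap, and the first array of each group was the highest of its group. The means were 5413 ± 128 with brassinazole plus 2,4-D and 6107 ± 282 with 2,4-D alone (SD, n = 3 each). The log2 change was -0.17 (95% interval -0.33 to -0.02, limma adjusted p = 0.181).

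TUA1, an alpha-tubulin known mainly from pollen, had signals of 409, 384 and 424 with brassinazole plus 2,4-D, against 459.5, 455 and 460.1 with 2,4-D alone. The 2,4-D arrays lay within a few units of each other and above all 3 brassinazole arrays, which were more spread. The means were 406 ± 20.0 with brassinazole plus 2,4-D and 458 ± 2.75 with 2,4-D alone (SD, n = 3 each). The log2 change was -0.17 (95% interval -0.36 to 0.02, limma adjusted p = 0.298). Of the alpha-tubulins, 0 of 2 passed, and 1 of 2, TUA6, had an unadjusted limma p under 0.05 (11.4% of all probe sets tested were lower at that p).

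The probe set shared by 2 alpha-tubulin genes ends in _s_at, and no gene is named from it. It had signals of 6573, 6002 and 6501 with brassinazole plus 2,4-D, against 7492, 7199 and 7734 with 2,4-D alone. All 3 brassinazole arrays lay below all 3 of the others. The means were 6359 ± 311 with brassinazole plus 2,4-D and 7475 ± 268 with 2,4-D alone (SD, n = 3 each). The log2 change was -0.23 (95% interval -0.39 to -0.07, limma adjusted p = 0.0766, and 0.0322 after quantile normalization), so it passed under that normalization and not in the scaling the authors deposited.

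**Figure D1:**
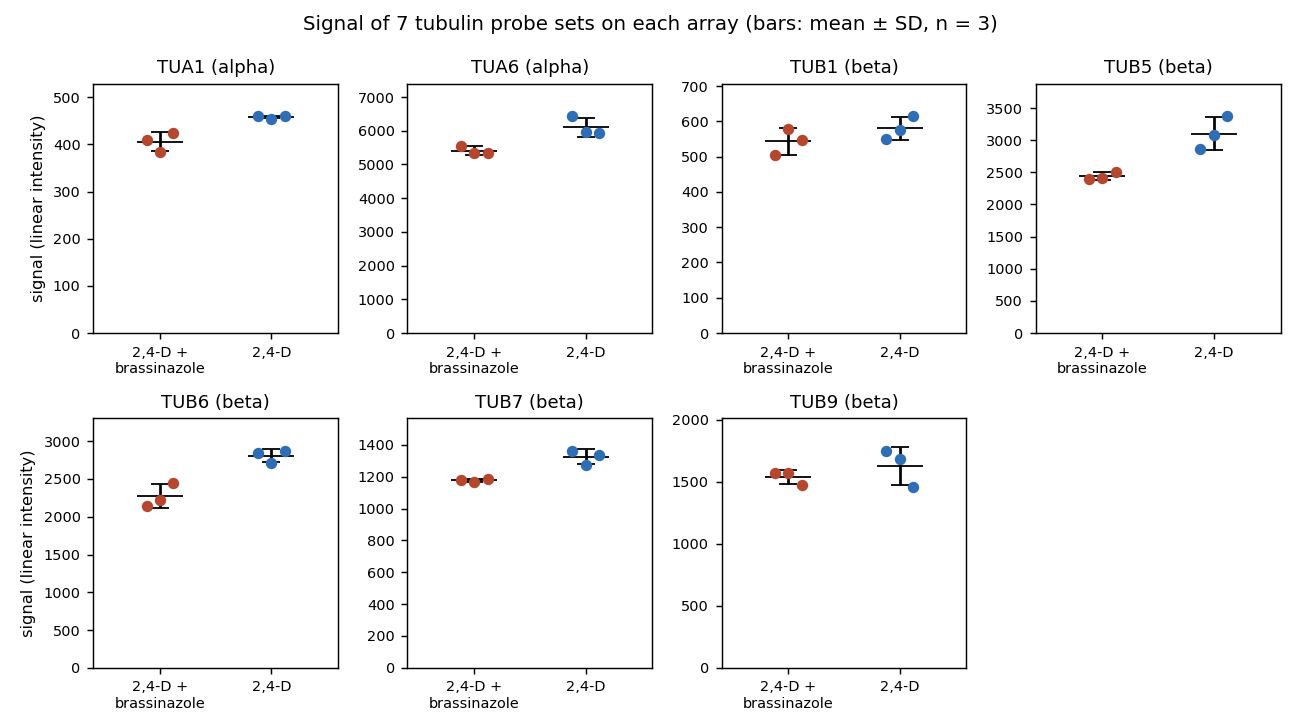
Signal (linear intensity, axes from 0) of the 7 tubulin probe sets on each array, with brassinazole plus 2,4-D in red on the left and 2,4-D alone in blue on the right. Points are arrays and bars the mean ± SD of 3; the groups are apart for TUA1, TUA6, TUB5, TUB6 and TUB7 and overlap for TUB1 and TUB9.

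Among the beta-tubulins the changes were less even. TUB5 had signals of 2395, 2406 and 2508 with brassinazole plus 2,4-D, against 2860.2, 3076 and 3374 with 2,4-D alone. The brassinazole arrays lay close together, below the whole and wider range of the 2,4-D arrays. TUB5 fell by 21.5%, with means of 2436 ± 62.5 with brassinazole plus 2,4-D and 3103 ± 258 with 2,4-D alone (SD, n = 3 each). Its log2 change was -0.34 (95% interval -0.52 to -0.17, limma adjusted p = 0.0183).

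TUB6, a beta-tubulin also used as a tagged microtubule marker, had signals of 2143, 2224 and 2448 with brassinazole plus 2,4-D, against 2850.5, 2709.7 and 2872 with 2,4-D alone. The groups did not overlap, and the third brassinazole array came nearest to the 2,4-D arrays. TUB6 fell by 19.2%, with means of 2272 ± 158 with brassinazole plus 2,4-D and 2811 ± 88.1 with 2,4-D alone (SD, n = 3 each). On the log2 scale the change was -0.31 (95% interval -0.48 to -0.14, limma adjusted p = 0.0296).

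The TUB5 and TUB6 calls lay close to the threshold and were lost in several fits. The TUB5 call was lost without brassinazole 1, brassinazole 2, 2,4-D alone 2 or 2,4-D alone 3 (limma adjusted p = 0.0555, 0.0761, 0.0548 and 0.0743) and without the mean-variance trend (0.084). The TUB6 call was lost without any single array other than brassinazole 3 (limma adjusted p from 0.0568 to 0.1145). It was also lost without the trend (0.105) and, narrowly, with arrays centred on their median (0.0505). The log2 change itself stayed between -0.42 and -0.28 for TUB5 and between -0.36 and -0.27 for TUB6 over the 15 alternatives.

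**Figure D2:**
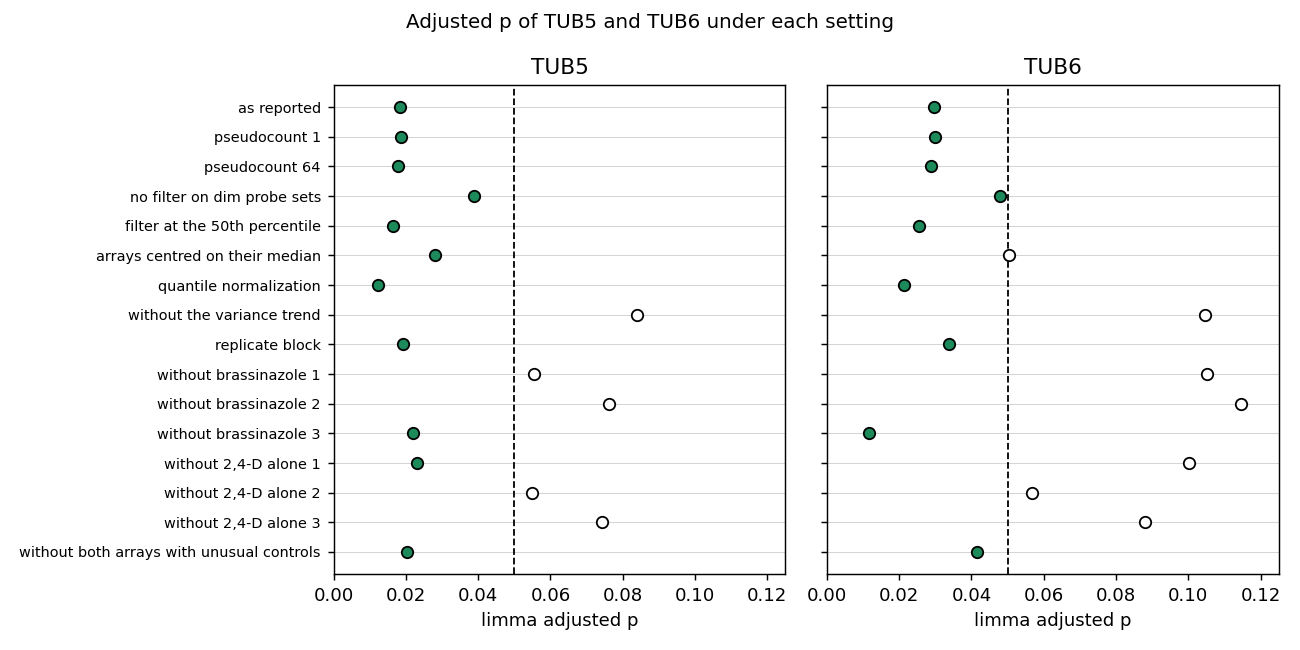
Limma adjusted p (horizontal axis, linear) of TUB5 and TUB6 in the fit as reported and under 15 alternatives, with the threshold of 0.05 dashed. Filled points are under the threshold; 5 alternatives for TUB5 and 7 for TUB6 lie above it.

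TUB7 had signals of 1183, 1166 and 1184 with brassinazole plus 2,4-D, against 1362, 1272 and 1339 with 2,4-D alone. The brassinazole arrays were nearly level, and all lay under the lowest 2,4-D array. The means were 1177 ± 10.0 with brassinazole plus 2,4-D and 1324 ± 47.0 with 2,4-D alone (SD, n = 3 each). The log2 change was -0.17 (95% interval -0.33 to -0.001) and did not pass (limma adjusted p = 0.225).

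TUB1, a beta-tubulin known for its expression in roots and for being lowered by light, had signals of 504, 579 and 548 with brassinazole plus 2,4-D, against 549, 576 and 615 with 2,4-D alone. The second brassinazole array exceeded the first and second 2,4-D arrays, so the groups overlapped. TUB1 had a log2 change of -0.09 (95% interval -0.29 to 0.11, limma adjusted p = 0.628).

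TUB9, a beta-tubulin described from pollen, had signals of 1571, 1573 and 1475 with brassinazole plus 2,4-D, against 1749.8, 1686 and 1457 with 2,4-D alone. The third 2,4-D array was the lowest of all 6, so the groups overlapped. TUB9 had a log2 change of -0.08 (95% interval -0.27 to 0.11, limma adjusted p = 0.666). It was 0.0044 without 2,4-D alone 1 and brassinazole 3, arrays whose control probe sets stood apart. The intervals of TUB1 and TUB9 spanned 0 and reached to -0.29 and -0.27, nearly as low as the change of TUB6.

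The groups did not overlap in 2 of 2 alpha-tubulin and 3 of 5 beta-tubulin probe sets, all lower with brassinazole, while 14.3% of all probe sets tested, and 15.6% of those at least as bright as the dimmest tubulin, were lower without overlap. The median log2 change was -0.17 for the alpha-tubulins and -0.17 for the beta-tubulins. The 95% intervals of TUB5 and TUB6 overlapped those of the other 5 members, and no test of a difference between members was run.

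On single arrays, the median over the 7 members of the log2 difference from the 2,4-D mean was -0.16, -0.19 and -0.16 on brassinazole 1, 2 and 3. On the 2,4-D arrays it was 0.02, -0.01 and 0.02. All 3 brassinazole arrays thus lay below all 3 of the others. Over all probe sets tested, the same median lay between -0.0103 and -0.005 on the brassinazole arrays and between 0.0014 and 0.0044 on the 2,4-D arrays.

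Members did not share their highest and lowest array. Among the 2,4-D arrays, TUB1 and TUB5 were highest on the third and lowest on the first, while TUA6 and TUB9 were highest on the first and lowest on the third. TUB5 differed by -0.11 and 0.12 from its own group mean on 2,4-D alone 1 and 3, and TUB9 by 0.11 and -0.16. The 2,4-D arrays thus did not order the tubulins in 1 way.

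**Figure D3:**
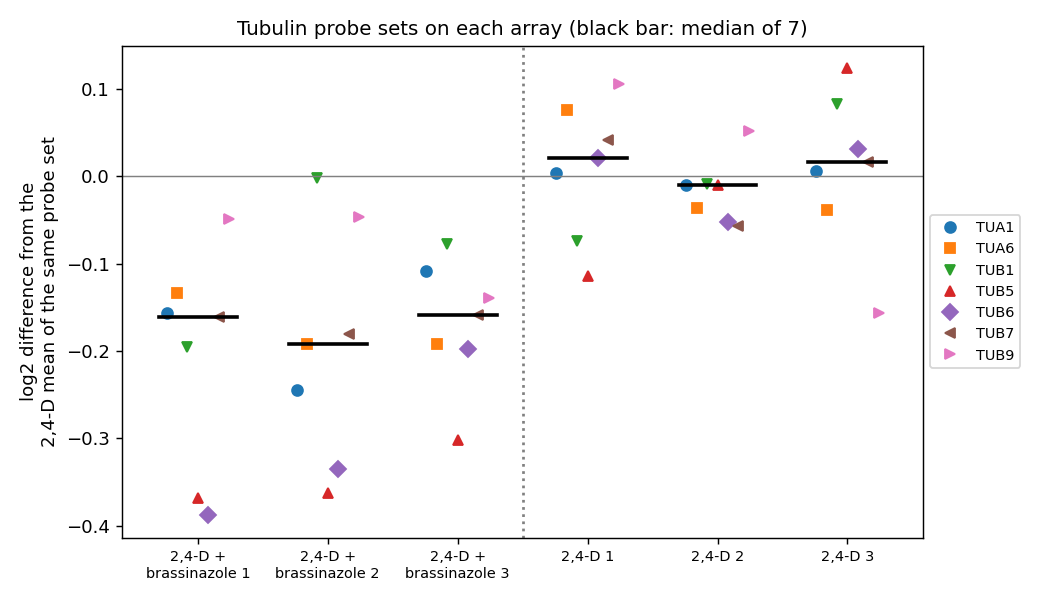
Log2 difference of each tubulin probe set from its mean over the 2,4-D arrays (vertical axis) on each array, with brassinazole plus 2,4-D on the left and 2,4-D alone on the right. Black bars are the median of 7 probe sets, -0.19 to -0.16 on the brassinazole arrays and -0.01 to 0.02 on the others.

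Genes placed in lists of tubulin folding, microtubule nucleation, microtubule-associated proteins and kinesins were measured only in small part, with changes in both directions. Of 86 loci in these 4 lists, 19 were tested, and with limma 0 passed in either direction. At an unadjusted p under 0.05, 2 were higher and 0 lower. Of all probe sets tested, 11.4% were lower at that p, and the share higher is not given here. The log2 change was below 0 in 9 of 19, with a median of 0.02, against -0.17 for the 7 tubulins and -0.01 for all probe sets tested. These lists were drawn up with earlier results of the same arrays known, and no test between them and the tubulins was run.

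In the folding list the log2 change was below 0 in 3 of 9 loci, with a median of 0.05. AT5G20890 had signals of 3872, 3742 and 4931 with brassinazole plus 2,4-D, against 3328, 3381 and 3687 with 2,4-D alone, and AT3G03960 had 1558, 1560.3 and 1623 with brassinazole plus 2,4-D, against 1432, 1329 and 1399 with 2,4-D alone. In both loci, which the gene table leaves without a name, all brassinazole arrays lay above all the others. They were the 2 loci with an unadjusted p under 0.05, at log2 changes of 0.26 and 0.19 (limma adjusted p = 0.139 and 0.167). Over the folding list, all brassinazole arrays lay above the others in 3 loci and below them in 1. Of all probe sets tested, 14.3% were lower without overlap, and the share higher without overlap is not given here. PFI and POR, the cofactors E and C that help join alpha- and beta-tubulin into dimers, were at -0.13 and -0.06 (limma adjusted p = 0.585 and 0.862).

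From the nucleation list 1 locus was tested, AT5G17410, also without a name, at a log2 change of 0.11 (limma adjusted p = 0.693). Among 6 microtubule-associated proteins, 4 were below 0, with a median of -0.05. TON1B, which is needed for ordered cortical arrays, was at -0.12, and WDL3, a microtubule-binding protein of elongating hypocotyls, at 0.17 (limma adjusted p = 0.583 and 0.59). Of 3 kinesins, 2 were below 0. KINESIN-13A, a motor-family protein that takes microtubules apart, was at -0.12, AT4G14330 at -0.27 and KINESIN-12B, a phragmoplast motor, at 0.25 (limma adjusted p = 0.465, 0.469 and 0.51). PFI, POR and KINESIN-12B are named beyond the rule for naming genes, after their values were seen.

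The lists for cellulose synthesis, actin and mitosis had 1 member tested each. COB, a protein needed for oriented cellulose deposition, had a log2 change of -0.04 (limma adjusted p = 0.827). ACT11, an actin, was at 0.00 and AUR1, a mitotic kinase, at 0.16 (limma adjusted p = 0.999 and 0.375). Most of each list was not measured, so these values do not describe the pathways as a whole.

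**Figure D4:**
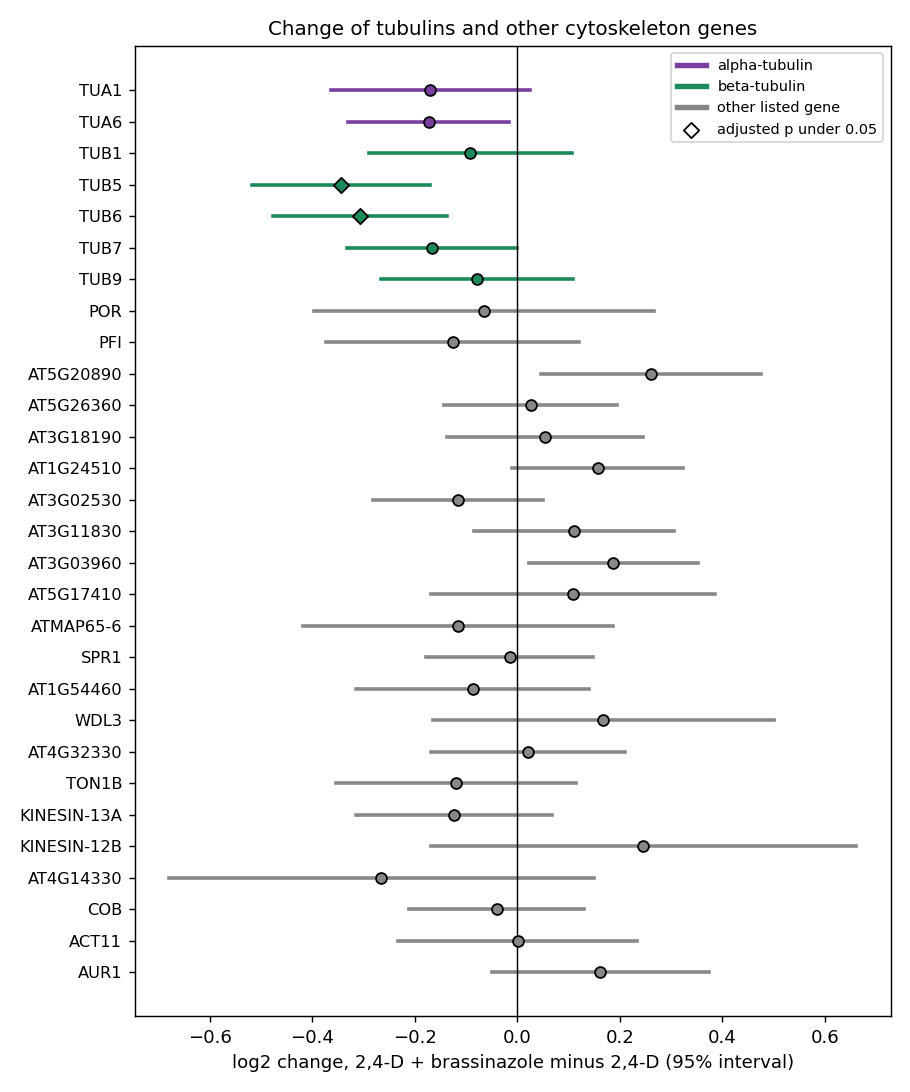
Log2 change (2,4-D plus brassinazole minus 2,4-D alone, 3 arrays each) with its 95% interval for the 7 tubulins, the 19 loci tested of the microtubule lists, and COB, ACT11 and AUR1, with loci that have no name shown by their tag. Diamonds mark an adjusted p under 0.05, reached by TUB5 and TUB6; all 7 tubulin points lie left of 0, as do 9 of the 19.

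RNA of both shoots and roots was present. Of 5 shoot markers 1 was measured, RCA, with signals of 22954 to 29053 with brassinazole plus 2,4-D and 24531 to 25764 with 2,4-D alone. Of 7 root markers 2 were measured, PYK10 and EXPA7, with log2 changes of opposite sign, 0.09 and -0.37. PYK10 had signals of 14489.5 to 17349 with brassinazole plus 2,4-D and 13503 to 17410 with 2,4-D alone (limma adjusted p = 0.684). EXPA7, an expansin of root hairs, was at 147 to 162 with brassinazole plus 2,4-D and 173 to 223 with 2,4-D alone (limma adjusted p = 0.0916). Detection calls were not given, and with brassinazole plus 2,4-D EXPA7 lay under the median signal of its arrays (188.8 to 193.8). The part of tissue makeup in the tubulin values was not tested.

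The median signal of an array was 188.8 to 195.6. RNA integrity can be read from the ratio of 3' to 5' signal of control transcripts. For the array's first set of actin controls this ratio was 18.8 to 21.1 with brassinazole plus 2,4-D and 12.3 to 17.3 with 2,4-D alone. In the second set it was 2.21 to 2.43 with brassinazole plus 2,4-D and 2.31 to 2.52 with 2,4-D alone. For the first set of ubiquitin controls it was 2.59 to 3.00 with brassinazole plus 2,4-D and 3.14 to 3.54 with 2,4-D alone, so that these ratios parted the groups in opposite directions and the second actin set did not part them. The 3' GAPDH control read 6067 to 6639 with brassinazole plus 2,4-D and 4610 to 5205 with 2,4-D alone. The 5' GAPDH control read 3897 to 4393 with brassinazole plus 2,4-D and 3613 to 3694 with 2,4-D alone. Both thus parted the groups. The 5S rRNA control read 230.0 to 284 with brassinazole plus 2,4-D and 134 to 174 with 2,4-D alone. The 25S rRNA control read 981 on 2,4-D alone 1 and 174 to 215 on the other 5 arrays. A spiked control, the 3' probe set of BioDn, read 3800.2 on brassinazole 3 and 2558 to 2746 on the other 5 arrays. The part of these controls in the tubulin values was not tested. Without 2,4-D alone 1 and brassinazole 3, the arrays with the 25S rRNA and spike values given above, TUB5 and TUB6 had log2 changes of -0.42 and -0.35 (limma adjusted p = 0.0203 and 0.0417), an alternative chosen after seeing the data.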

How the data were processed

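The authors deposited 1 linear intensity for each probe set and array, and MAS5 is named in the submitters' processing notes. The MAS5 version, detection calls and filters were not given in the sources used here. Averaged over the central 96% of probe sets, each array stood at 500.0, which shows that the deposited intensities had been scaled to a common mean, and a shift shared by most transcripts would not be seen. Of 22810 probe sets, 64 were controls and stayed out of the fit. The annotation gave 1 gene for 13513, several for 503 and no entry for 8794. Symbols came from the RefSeq table of TAIR10.1, used for names only.

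Signals were taken as log2(signal + 16), and probe sets under the 25th percentile of mean log2 were left out. The comparison used limma 3.58.1 under R 4.3.3 (lmFit, eBayes with a trend, two-sided, Benjamini-Hochberg). Fold changes on this scale understate the change of dim probe sets. The steps were tested on simulated data, with recovery required only for changes far larger than those of the tubulins. Precision is limited by having 3 arrays per group. Alternatives were pseudocounts of 1 and 64, other filters, median centring, quantile normalization, no trend, a replicate block and each array left out.

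Members and lists were chosen with earlier results of these data known. All members were named. From each list the rule named up to 6 genes that passed, and otherwise up to 2 with the smallest p. Listed loci that RefSeq does not name are given by their locus tag.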

Additional observations from a re-analysis of the deposited data

How the results depend on the processing

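The 7 tubulin changes stayed below 0 under 14 of the 15 alternatives. Among these, the other filters, the fit without the trend and the replicate block leave each log2 change as it was. They could not alter its sign. In the 1 alternative of the 15 that differed, without 2,4-D alone 1 and brassinazole 3, TUB9 turned to 0.0044 and the other 6 stayed below 0. The number of beta-tubulins called lower, 2, was 1 with arrays centred on their median, 0 without the variance trend, and 0 to 2 with single arrays left out. The cause of these differences in count was not tested. The median beta-tubulin change of -0.1669 was -0.146 with centred arrays and -0.1955 to -0.1465 with single arrays left out. Over all probe sets, 696 were called lower and 586 higher. These counts were 439 and 316 without the trend, and 460 and 355 with that pair of arrays left out. With single arrays left out they ranged from 452 to 630 lower and from 338 to 527 higher. TUA1 and TUA6 were called under none of the 15 alternatives run (limma adjusted p of 0.0922 to 0.567), while the probe set shared by 2 alpha-tubulin genes was called after quantile normalization (0.0322).

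The replicate numbers of the titles did not pair the samples by the criterion used, a correlation of deviations from the group means over 0.1 in every pair. The correlations were 0.0372, 0.0625 and 0.0491, though each sample correlated best with its own number. With the replicate block, 676 probe sets were called lower and 604 higher, and TUB5 and TUB6 stayed called (limma adjusted p = 0.0193 and 0.0337).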
